A study of Mus musculus with 4 samples.

Results

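Heat shock proteins and their cochaperones were followed here in mouse pancreatic tumours prepared in 2 ways for single-cell RNA sequencing. The genes were those whose symbols begin with Hspa, Hspb, Hspd or Hspe and a digit, with Hsp90, or with Dnaja, Dnajb or Dnajc, plus Hsph1 and Bag1 to Bag6. Of 32285 genes in the annotation, 79 had such a symbol, and 73 of these had at least 20 unique molecular identifiers (UMIs, each standing for 1 captured RNA molecule) over the cells that passed the filter. The 6 left out were Hspb3 and Hspb9 with 1 UMI each, Dnajb7 with 2, and Dnajb8, Dnajc5b and Dnajc5g with 0. Just inside the limit stood Hspa1l with 20 UMIs, Dnajb13 with 29 and Dnajc6 with 31.

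The tumours were orthotopic pancreatic tumours of KPC cells in C57BL/6J mice, collected on day 13 after implantation, with no treatment. Each of 2 KPC lines, KPC-4545 and KPC-3403, gave 1 enriched and 1 whole library. For the enriched libraries, labelled as enriched for cancer-associated fibroblasts, dissociated cells that stained for none of the markers TER119, EPCAM, CD31 or CD45 were sorted, a gate that leaves out erythroid, epithelial and endothelial cells and leukocytes. Whole libraries held the dissociated tumour without that sort. Both were loaded on 10x Genomics 5′ chemistry after enzymatic dissociation. No label says whether different mice supplied the 4 libraries, and the spread that the tests use may therefore be technical. Within each preparation, values of KPC-4545 stand before those of KPC-3403.

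Heat shock proteins bind unfolded proteins and help them fold, hold them in solution, or pass them on for degradation. HSP70 proteins do this in cycles of ATP hydrolysis that J-domain proteins (the DnaJ genes) start and that BAG proteins and HSP110 reset by exchanging the nucleotide. A subset is held at a low level until heat, oxidation or unfolded protein frees the transcription factor HSF1, which binds repeated GAA units in their promoters; others are made constantly, and those of the endoplasmic reticulum answer to unfolded protein in that compartment.

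Promoter sequence is shown for 4 members, picked by hand, whose upstream stretch held the letters of a heat shock element. All 4 had higher fitted values in enriched epithelial or tumour-like cells, so they do not stand for every member with the letters. Hspe1, Dnajb6 and Dnajc10 also held them and are described below but not shown, and Dnajc10 was lower in both lines. Capitals mark GAANNTTC or TTCNNGAA, 2 inverted GAA units, each of which reads the same on both strands. All stretches are from RefSeq on GRCm38.p6, 5′ to 3′ along the gene's strand, and lie upstream of a listed start and outside annotated exons. Dnajb4 had another listed start, whose window (chr3:152210034-152210333) held 0 matches in 31 upstream bases outside exons.
Hspa1a, chr17:34972217-34972296, minus strand: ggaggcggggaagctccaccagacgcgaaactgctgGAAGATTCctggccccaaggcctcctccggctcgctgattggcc
Hspb1, chr5:135887766-135887865, plus strand: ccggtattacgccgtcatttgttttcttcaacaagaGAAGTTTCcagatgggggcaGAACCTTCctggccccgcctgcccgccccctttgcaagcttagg
Dnaja4, chr9:54699433-54699512, plus strand: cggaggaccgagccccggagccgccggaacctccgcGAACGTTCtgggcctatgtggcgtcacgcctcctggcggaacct
Dnajb4, chr3:152193846-152193895, minus strand: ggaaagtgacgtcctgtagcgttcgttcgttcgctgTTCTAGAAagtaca

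Hspa1b, at chr17:34959299-34959378, held the same 80 letters as Hspa1a, and the 2 genes were identical at 247 of the 250 bases upstream. Their transcripts also share long stretches, with 49.1% of the 91-base words of Hspa1a found in Hspa1b and 52.0% the other way. Reads could therefore be split between these genes, and each of their values is uncertain for that reason. A promoter was listed for 58 of the 73 members. The 2-unit letters stood in the 250 upstream bases of 13 of them, or 22.4%, against 14.5% of 27025 genes. The 13 were Hspa1a, Hspa1b, Hsph1, Hspd1, Hspe1, Hspb1, Hspb6, Dnaja1, Dnaja4, Dnajb4, Dnajb6, Dnajc10 and Dnajc27. A run of 3 units stood in 0.514% of genes and in 3 of the 58 members, Hspd1, Hspe1 and Dnajb6. A match is only a match of letters.

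The enriched libraries held 1556 and 2564 cells after filtering and the whole libraries 536 and 1209, with total UMIs over all barcodes of 47207893 and 51450719 against 5746733 and 13990046. The enriched KPC-4545 and whole KPC-3403 libraries shared 139 cell barcodes, 130 of which had at most 1/10 as many UMIs in the enriched KPC-4545 library as in the other. Over all pairs of libraries, 155 such low copies were left out, and keeping them changed no count of members that passed edgeR. Only 52 cells, or 3.34%, of the enriched KPC-4545 library were fibroblast-like by marker genes, against 58.6% of enriched KPC-3403, while 53.6% and 27.2% of the enriched libraries were epithelial or tumour-like although the gate was negative for EPCAM. Clusters were made without the 73 members. Epithelial or tumour-like cells were the one class with at least 20 cells in every library (834 and 697 enriched, 35 and 224 whole cells). Other classes met in KPC-3403 alone. In sums over many cells, fewer cells of a type and less RNA per cell cannot be told apart.

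Within epithelial or tumour-like cells, members of most chaperone families were more abundant in the enriched preparation of both lines. J-domain genes of type C and BAG genes, each as a group, were not. Of 64 members tested, 38 were higher in both lines and 11 were lower in both, against 32.8% and 33.4% of 12177 genes. The highest fitted differences among members with over 10 CPM (UMIs of a gene per 1e+06 UMIs of the class, scaled by TMM) in every library were those of Hspb1, Dnajb1, Hspa8, Dnajb4 and Hspa1a. In 23 members both enriched libraries lay above both whole libraries, against 20.2% of genes, and in 5 members both lay below, against 18.3%. The median fitted log2 difference was 0.30 over the members and 0.03 over all genes.

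No member passed at an adjusted p of 0.05 in edgeR's quasi-likelihood test with Benjamini-Hochberg adjustment over all genes, where 0.00821% of genes passed. The smallest adjusted p of a member was 0.259, for Hsph1. At an unadjusted p under 0.05 edgeR gave 15 members higher and 3 lower, against 6.22% and 5.19% of genes, and a fitted difference of at least 1 on the log2 scale was seen upward in 15 members and downward in 3, against 6.83% and 10.0% of genes. DESeq2, the second tool, passed 0 members as lower (1.78% of genes) and 6 as higher (1.31% of genes): Hspa8, Hspa1a, Hsph1, Hspa5, Hspb1 and Dnajb1. A single library moved the edgeR count: without the enriched KPC-3403 library, and so without a line term, 7 of 63 members passed as higher and 1 as lower (1.54% and 4.23% of genes), while the other 3 omissions gave 0. The fits had 1 residual degree of freedom, and 9 members were too low to be tested in this class (Dnajb13, Dnajb3, Dnajc28, Dnajc6, Hspa12a, Hspa12b, Hspa1l, Hspb2 and Hspb7).

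**Figure D1:**
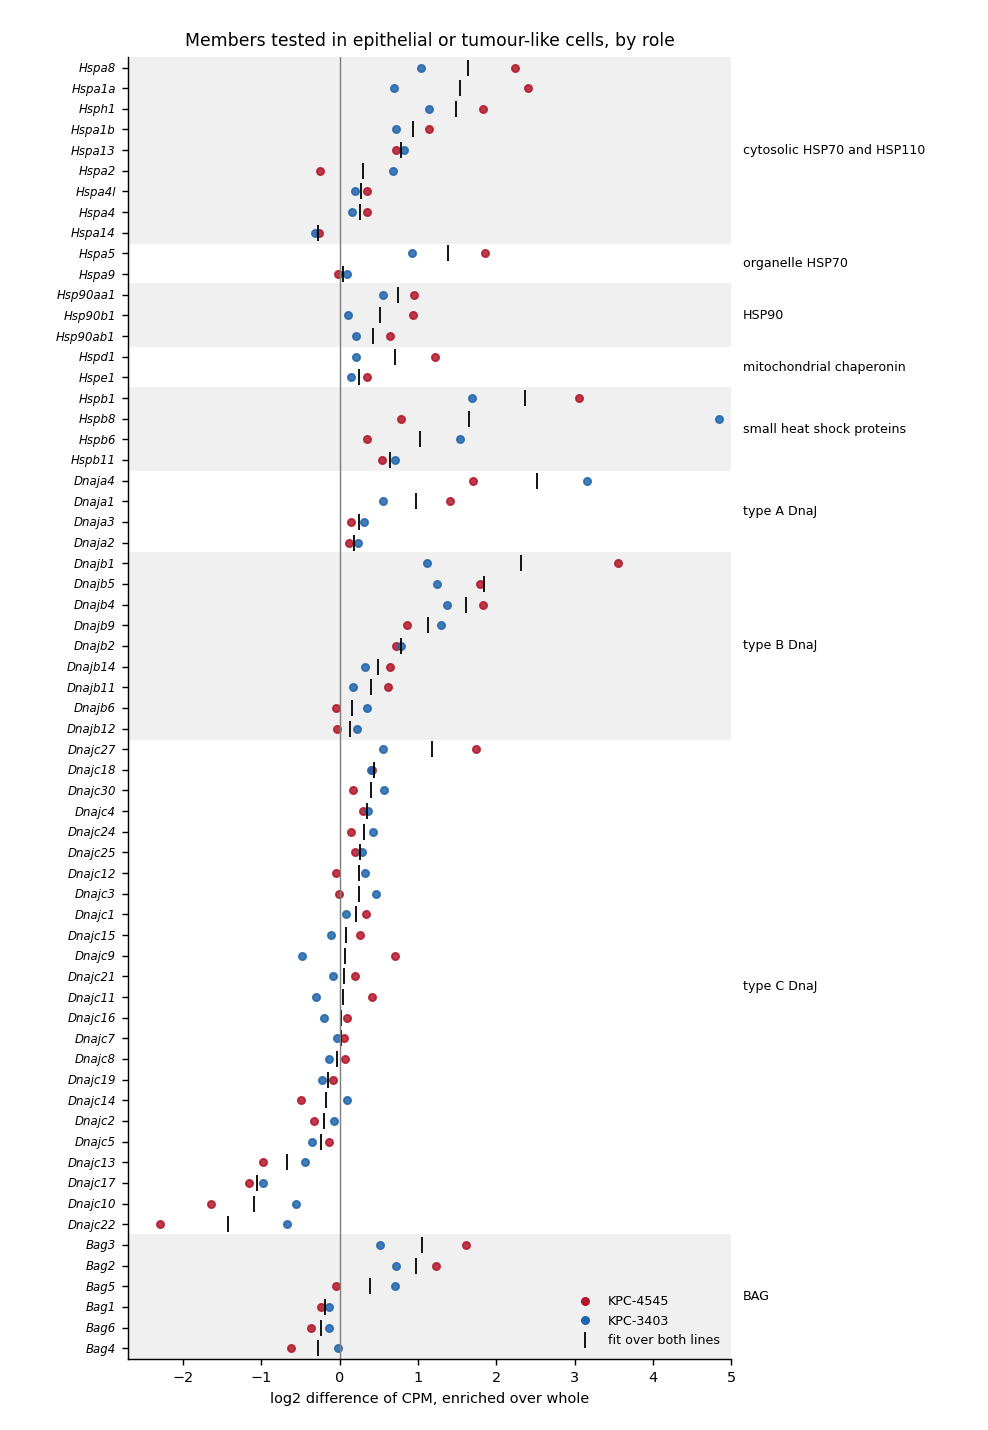
Log2 difference of CPM, enriched over whole, for 63 members tested in epithelial or tumour-like cells, grouped by role. Red and blue points are the KPC-4545 and KPC-3403 lines, black ticks the fit over both. Small heat shock proteins lie to the right of 0 in both lines and type C J-domain genes scatter around it. The blue point of Hspb8 rests on 46 UMIs against 0.

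Of the 9 HSP70 and HSP110 genes tested other than Hspa5 and Hspa9, 7 were higher in both lines and 1 lower, with a median log2 difference of 0.79. Hspa8, the constitutive cytosolic HSP70, had 4733 and 2568 CPM in enriched cells, against 1001 and 1256 CPM in whole cells. Both enriched libraries lay above both whole ones (log2 1.64 ± 0.36 SE, edgeR adjusted p = 0.329, DESeq2 adjusted p = 0.0009).
Hspa1a, the classic heat-inducible HSP70, had 431 and 239 CPM in enriched cells, against 80.6 and 148 CPM in whole cells (log2 1.53 ± 0.52 SE, edgeR adjusted p = 0.434, DESeq2 adjusted p = 0.0294). The groups did not overlap, though the ratio was 2.41 on the log2 scale in KPC-4545 and 0.69 in KPC-3403.
Its near copy Hspa1b had 138 and 62.2 CPM in enriched cells, against 62.1 and 37.6 CPM in whole cells, so that enriched KPC-3403 and whole KPC-4545 lay at nearly the same level. Hsph1, the HSP110 that exchanges the nucleotide of HSP70, had 242 and 125 CPM in enriched cells, against 67.5 and 56.9 CPM in whole cells (log2 1.48 ± 0.26 SE, edgeR adjusted p = 0.259, DESeq2 adjusted p = 0.00367). Here the 2 lines were close to each other within the whole preparation. Hspa4, also of the HSP110 family, stood at 203 and 142 CPM in enriched cells, against 159 and 127 CPM in whole cells, and these ranges overlapped.

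The organelle HSP70 genes Hspa5 and Hspa9 differed from each other. Hspa5, the HSP70 of the endoplasmic reticulum known as BiP, had 1322 and 1224 CPM in enriched cells, against 366 and 645 CPM in whole cells (log2 1.38 ± 0.30 SE, edgeR adjusted p = 0.299, DESeq2 adjusted p = 0.00297). Hspa9, the mitochondrial HSP70, had 215 and 155 CPM in enriched cells, against 218 and 145 CPM in whole cells, a log2 difference of 0.04 ± 0.19 SE. For Hspa9 the line set the level more than the preparation did.

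All 3 HSP90 genes were somewhat higher in both lines, with a median log2 difference of 0.52. Hsp90aa1, the inducible cytosolic HSP90, had 1820 and 920 CPM in enriched cells, against 946 and 627 CPM in whole cells, so that enriched KPC-3403 lay just under whole KPC-4545 (log2 0.75 ± 0.22 SE, edgeR adjusted p = 0.366). Hsp90ab1, the constitutive one, had 4787 and 3442 CPM in enriched cells, against 3077 and 2987 CPM in whole cells (log2 0.42 ± 0.22 SE). Hsp90b1, the HSP90 of the endoplasmic reticulum, had 1028 and 780 CPM in enriched cells, against 537 and 726 CPM in whole cells, and in KPC-3403 its log2 difference was 0.10. None of the 3 passed either tool.

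The mitochondrial chaperonin forms a folding chamber from Hspd1 (HSP60) with a lid of Hspe1 (HSP10). Hspd1 had 719 and 406 CPM in enriched cells, against 309 and 350 CPM in whole cells (log2 0.71 ± 0.31 SE, edgeR adjusted p = 0.466). Hspe1 had 944 and 727 CPM in enriched cells, against 742 and 659 CPM in whole cells (log2 0.24 ± 0.20 SE). The partners thus differed by unequal amounts, and the Hspe1 ranges overlapped.

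Small heat shock proteins hold unfolding proteins without using ATP, and all 4 tested were higher in both lines (median log2 1.33). Hspb1, known as HSP25 or HSP27, had 2434 and 2017 CPM in enriched cells, against 292 and 624 CPM in whole cells (log2 2.37 ± 0.42 SE, edgeR adjusted p = 0.283, DESeq2 adjusted p = 5.52e-07). Every enriched value was more than 3 times every whole value. Barcodes with at most 100 UMIs hold mostly free RNA. In them Hspb1 had 1537 and 4907 CPM of plain totals in enriched libraries, against 873 and 520 CPM in whole libraries. The part of free RNA in the class values was not tested. Hspb8, a partner of Bag3, separated the lines rather than the preparations, at 72.1 and 3.87 CPM in enriched cells, against 41.4 and 0 CPM in whole cells. Hspb6 had 20.0 and 21.8 CPM in enriched cells, against 15.2 and 7.35 CPM in whole cells. Hspb11, which despite its name belongs to the transport machinery of cilia, had 73.9 and 67.0 CPM against 50.1 and 40.8 CPM.

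**Figure D2:**
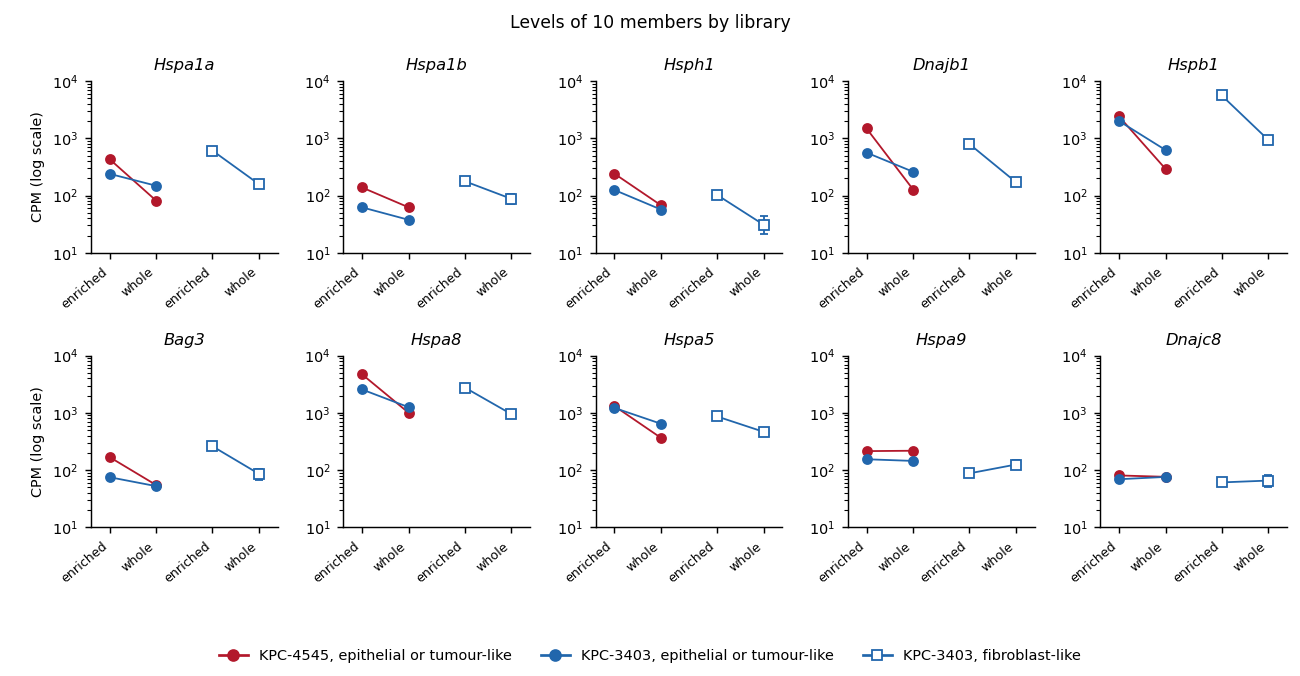
CPM (log scale) of 10 members by library. Filled circles are epithelial or tumour-like cells of KPC-4545 (red) and KPC-3403 (blue), joined from enriched to whole, and open squares are fibroblast-like cells of KPC-3403 with 95% counting intervals. Hspb1 and Dnajb1 lie highest above their whole values, while Hspa9 and Dnajc8 are nearly level.

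J-domain proteins of types A and B resemble bacterial DnaJ and serve folding in several compartments of the cell. All 4 type A genes and 7 of 9 type B genes tested were higher in both lines, with median log2 differences of 0.61 and 0.79. Dnajb1, the inducible HSP40 that works with Hspa1a, had 1488 and 562 CPM in enriched cells, against 126 and 259 CPM in whole cells (log2 2.32 ± 0.86 SE, edgeR adjusted p = 0.475, DESeq2 adjusted p = 0.00118). Its log2 difference was 3.55 in KPC-4545 and 1.12 in KPC-3403, the widest gap between lines among the 6 members that passed DESeq2.
Dnaja1, a general cytosolic partner of HSP70, had 508 and 266 CPM in enriched cells, against 191 and 181 CPM in whole cells (log2 0.98 ± 0.28 SE, edgeR adjusted p = 0.365). Dnaja4 had 15.9 and 3.61 CPM in enriched cells, against 4.36 and 0.272 CPM in whole cells, and the whole values rest on 4 UMIs in KPC-4545 and 1 UMI in KPC-3403. Dnajb4, chosen for mention after its values were seen, had 52.5 and 27.1 CPM in enriched cells, against 14.2 and 10.3 CPM in whole cells (log2 1.62 ± 0.31 SE, edgeR adjusted p = 0.283, DESeq2 adjusted p = 0.0677). For Dnaja1 and Dnajb4 both enriched values lay above both whole values, and for Dnaja4, higher within each line, the ranges of the preparations overlapped.
Among J-domain proteins of the endoplasmic reticulum, Dnajb9 had 32.5 and 74.6 CPM in enriched cells, against 17.4 and 30.2 CPM in whole cells (log2 1.12 ± 0.27 SE, edgeR adjusted p = 0.330). Dnajb11 had 97.6 and 55.7 CPM in enriched cells, against 63.2 and 49.3 CPM in whole cells. Dnajb6, which holds back aggregation, had 96.5 and 104 CPM against 99.1 and 81.7 CPM. In Dnajb11 and Dnajb6 the preparations overlapped.

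Type C proteins share little beyond the J domain, and 24 were tested: 7 were higher in both lines, 7 lower in both and 10 mixed, with a median log2 difference of 0.05. Dnajc8, linked to splicing, had 80.6 and 69.2 CPM in enriched cells, against 76.2 and 76 CPM in whole cells. Dnajc19, of the mitochondrial import motor, had 127 and 92.2 CPM in enriched cells, against 134 and 108 CPM in whole cells. Dnajc3, which acts in the endoplasmic reticulum, had 55.7 and 113 CPM in enriched cells, against 55.5 and 81.4 CPM in whole cells. These 3 did not separate the preparations.
The 3 members with a fitted difference of -1 or lower were all of type C. Dnajc10, a disulfide reductase of the endoplasmic reticulum, had 42.9 and 194 CPM in enriched cells, against 134 and 287 CPM in whole cells (log2 -1.09 ± 0.33 SE, edgeR adjusted p = 0.378). Dnajc17, chosen after its values were seen, had 18.7 and 21.8 CPM in enriched cells, against 41.4 and 42.7 CPM in whole cells (log2 -1.05 ± 0.27 SE, edgeR adjusted p = 0.336). Dnajc22, likewise chosen, had 6.52 and 17.3 CPM in enriched cells, against 31.6 and 27.5 CPM in whole cells (log2 -1.42 ± 0.49 SE, edgeR adjusted p = 0.410). Dnajc17 and Dnajc22 did not overlap between preparations, and Dnajc10 did. Within single clusters of KPC-3403, Dnajc10 was not lower in the enriched library: its ratios of enriched to whole were 2.18 (95% counting interval 1.38 to 3.65) in cluster 2, 1.15 (1.02 to 1.29) in cluster 8 and 1.04 (0.826 to 1.29) in cluster 17, which filled much of the whole class and held Dnajc10 at 414 CPM in the whole library. The ratios of Dnajc22 were 1.81 (0.472 to 15.4), 0.886 (0.626 to 1.28) and 1.42 (0.640 to 2.82), and all of these intervals held 1. In KPC-3403 the lower class value of Dnajc10 was thus not seen inside these clusters. For Dnajc22 the intervals are too wide to tell, and the whole library of cluster 2 held 2 UMIs of it. KPC-4545, where both class differences were larger, had no epithelial cluster with enough cells in both libraries.

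BAG proteins release the client of HSP70, and of the 6 tested 2 were higher and 3 lower in both lines. Bag3, an inducible member that directs clients to autophagy, had 168 and 75.0 CPM in enriched cells, against 54.5 and 52.3 CPM in whole cells (log2 1.05 ± 0.33 SE, edgeR adjusted p = 0.393, DESeq2 adjusted p = 0.208). Bag2 had 44.6 and 43.7 CPM in enriched cells, against 18.5 and 26.4 CPM in whole cells (log2 0.97 ± 0.29 SE, edgeR adjusted p = 0.374). Bag1 had 134 and 222 CPM in enriched cells, against 158 and 245 CPM in whole cells, and Bag6 had 42.7 and 50.3 CPM against 54.5 and 55.3 CPM. For Bag3 and Bag2 both enriched values were above both whole values.

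The libraries differed within this class in more than these genes. Its median depth was 31711.5 and 16538 UMIs per enriched cell, against 18322 and 11332.5 UMIs per whole cell, and its median mitochondrial share was 1.92% and 2.08% against 3.44% and 2.35%. The 10 epithelial or tumour markers summed to 3396 and 7360 CPM in enriched cells, against 7414 and 10225 CPM in whole cells, with none at 0. The 8 fibroblast markers summed to 135 and 413 CPM in enriched cells, against 88.3 and 11.1 CPM in whole cells, where Lum, Pdgfrb and Dpt were at 0. The 7 erythroid markers summed to 0.0719 and 2.05 CPM in enriched cells, against 93.9 and 1420 CPM in whole cells, with 5 of them at 0 in enriched KPC-4545 and 1 in whole KPC-4545. Different clusters also supplied the class: clusters 1, 14 and 19 in enriched KPC-4545, clusters 2 and 8 in enriched KPC-3403, cluster 1 most often in whole KPC-4545, and clusters 17, 23 and 8 in whole KPC-3403. The part of depth, markers and cluster makeup in the differences was not tested beyond 2 omissions. Without clusters 17 and 23, 4 of 64 members passed edgeR as higher (Hspa1a, Hspa5, Hspb1 and Hsph1), against 0.724% of genes. Without cluster 19, whose median mitochondrial share was 14.2% over 95 cells, none passed and the median log2 difference of the members was 0.34.

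Fibroblast-like cells could be compared in KPC-3403, where 1502 enriched and 53 whole cells were held, with no replicate check and intervals that cover counting error only. Of 57 members with a mean of at least 10 CPM, 11 were at least 1 log2 unit higher in the enriched library (4.73% of 7672 genes) and 0 were as much lower (3.90% of genes). Hspb1 had 5644 CPM in enriched cells and 937 CPM in whole cells, a ratio of 6.02 (95% interval 5.65 to 6.43). Dnajb1 had 796 CPM in enriched cells and 171 CPM in whole cells, a ratio of 4.66 (4.01 to 5.45). Hspa1a had 610 CPM in enriched cells and 157 CPM in whole cells, a ratio of 3.89 (3.32 to 4.58).
Bag3, Hsph1, Hspa8, Hsp90aa1 and Hspa1b had ratios of 3.05, 3.33, 2.92, 2.48 and 2.03, and Dnajb4 one of 2.32. Hspa5 had 867 CPM in enriched cells and 466 CPM in whole cells, a ratio of 1.86 (1.70 to 2.04). A pair of abundant members lay the other way: Hspa9 had 87.6 CPM in enriched cells and 125 CPM in whole cells (ratio 0.700, 0.585 to 0.845), and Hsp90b1 953 and 1119 CPM (ratio 0.852, 0.802 to 0.905). Type C genes such as Dnajc8 (ratio 0.929, 0.726 to 1.21) and Dnajc19 (1.05, 0.855 to 1.29) had intervals that held 1. Median depth in this class was 16153.5 UMIs per enriched cell and 16849 UMIs per whole cell, and the median mitochondrial share 2.09% and 2.40%. The enriched class was mostly clusters 0 and 3, and the whole class clusters 9 and 3.

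Cells of a single cluster gave the same comparison with less difference in makeup. In fibroblast cluster 9 (192 enriched and 23 whole cells) 15 of 57 members were at least 1 log2 unit higher, against 4.39% of genes, and 0 as much lower, against 7.66% of genes. Hspa1a there had 632 CPM in enriched cells and 45.0 CPM in whole cells, a ratio of 14 (9.07 to 23). In epithelial cluster 8 (221 enriched and 51 whole cells) 9 of 57 members were as much higher and 0 lower, against 2.03% and 2.35% of genes. Cluster 2 (400 and 34 cells) held 4 of 55 higher and 1 lower, against 4.17% and 5.88% of genes. Cluster 17 (21 and 87 cells) held 7 of 54 higher and 2 lower, against 9.06% and 8.17% of genes.
Hspb1 was higher in the enriched library in each of these 4 clusters, with ratios of 4.61 in cluster 9, 4.39 in cluster 8, 3.94 in cluster 2 and 2.04 in cluster 17. Hspa8 had ratios of 2.45, 1.89, 1.94 and 1.46 in the same order. Hspa1a did not keep 1 direction, with a ratio of 3.87 (3.12 to 4.87) in cluster 8, 0.657 (0.532 to 0.820) in cluster 2 and 0.573 (0.378 to 0.838) in cluster 17. Its near copy Hspa1b had ratios of 2.28 (1.65 to 3.22), 1.27 (0.753 to 2.30) and 1.16 (0.594 to 2.11) in these clusters.

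**Figure D3:**
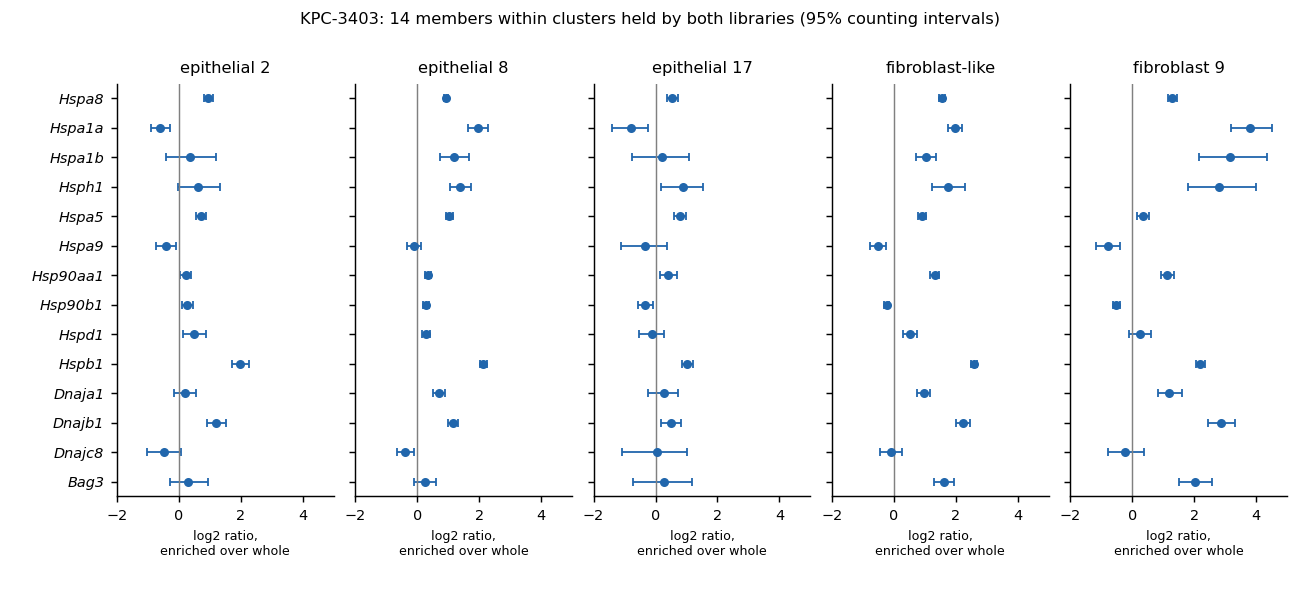
Log2 ratio of CPM, enriched over whole, for 14 members in KPC-3403 within epithelial clusters 2, 8 and 17, the fibroblast-like class and fibroblast cluster 9. Points are 1 library over 1, and bars are 95% intervals of counting error. Hspb1 and Hspa8 lie right of 0 in all 5 panels, and Hspa1a lies left of 0 in clusters 2 and 17.

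Each line could also be read alone in the epithelial or tumour-like class. In KPC-4545, 13 of 59 members were at least 1 log2 unit higher and 3 as much lower, against 9.77% and 10.5% of genes. In KPC-3403 these were 7 of 58 and 1, against 3.16% and 5.52% of genes. Dnajc9 was the one member whose counting intervals excluded a ratio of 1 in opposite directions, at 1.69 (1.00 to 3.11) in KPC-4545 and 0.696 (0.547 to 0.892) in KPC-3403, and it rests on 14 UMIs in whole KPC-4545.

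Further classes and clusters met in KPC-3403. Among erythroid-like cells (49 enriched, 128 whole), 16 of 50 members were at least 1 log2 unit higher and 6 as much lower, against 11.6% and 24.1% of genes, but cluster 20 supplied the enriched cells and clusters 21 and 24 most whole cells. Scaling moved this class: with plain totals the median gene stood at 1.49 on the log2 scale, against -0.14 with TMM. Within cluster 20 itself (44 and 25 cells) 14 of 54 members were higher and 5 lower, against 11.6% and 18.8% of genes. Hspa8 had 4722 CPM in enriched cells of that cluster and 1050 CPM in whole cells, a ratio of 4.50 (3.98 to 5.10).
Neutrophil-like cells, which the gate should remove, numbered 24 in the enriched library and 130 in the whole one. Of 41 members, 6 were higher and 6 lower by the same limit, against 26.4% and 14.3% of genes. Hspb1 held 197 UMIs in these 24 enriched cells and 3 UMIs in the 130 whole cells. Few cells carried it: 33.3% of the enriched cells held any, and thinned to 1000 UMIs the 6 heat-inducible genes had a median of 0 and a highest value of 44 UMIs over 22 of these cells. In barcodes with at most 100 UMIs, which hold mostly free RNA, Hspb1 had 4907 CPM in enriched KPC-3403 and 520 CPM in whole KPC-3403, and the part of free RNA in the neutrophil value was not tested. In the unnamed cluster 7 (41 and 147 cells), 10 of 52 members were higher and 4 lower, against 16.1% and 8.60% of genes.

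Summed over all cells, 36 of 71 members tested were higher and 17 lower in both lines, against 31.7% and 35.6% of genes. None passed edgeR (0% of 15132 genes passed), with 17 members higher at an unadjusted p under 0.05 against 5.23% of genes, and DESeq2 passed 10 as higher and 0 as lower, against 1.92% and 8.37% of genes. Hspb1 had 2225 and 4701 CPM in enriched libraries, against 230 and 465 CPM in whole libraries (log2 3.30 ± 0.28 SE, edgeR adjusted p = 0.112). These sums mix classes, since leukocytes and erythroid cells fill most of the whole libraries. With those classes left out, 38 of 70 members were higher and 9 lower in both lines, against 27.2% and 30.3% of genes, and 14 had a fitted log2 difference of at least 1 and 4 one of -1 or lower, against 7.70% and 12.7% of genes. Again 0 passed edgeR (0% of 14313 genes), 15 were higher and 3 lower at an unadjusted p under 0.05 (3.33% and 5.09% of genes), and DESeq2 passed 9 as higher and 1 as lower (0.699% and 2.58% of genes). Hspb1 there had 2260 and 4956 CPM in enriched libraries, against 514 and 737 CPM in whole libraries (log2 2.44 ± 0.26 SE, edgeR adjusted p = 0.399). This sum still mixed classes: fibroblast-like cells were 1502 of its 2487 cells in enriched KPC-3403 and 53 of 448 in whole KPC-3403. The part of that makeup in these values was not tested.
Leaving out 1 library, and with it the line term, changed the edgeR counts. Over all cells 11 of 71 members passed as higher without enriched KPC-4545, against 4.81% of genes, and 17 higher and 1 lower without enriched KPC-3403, against 5.63% and 14.3% of genes. Outside the leukocyte and erythroid classes 10 of 68 passed as higher and 1 as lower without enriched KPC-4545, against 2.69% and 1.48% of genes, and 13 and 3 without enriched KPC-3403, against 2.48% and 7.52% of genes. Leaving out either whole library gave 0 in both sums.

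Levels by class, as CPM of plain totals, showed where each gene is used in the unsorted tumour. Hspb1 in whole libraries stood at 970 CPM in fibroblast-like cells and at 303 and 623 CPM in epithelial or tumour-like cells, against 0 and 9.70 CPM in B or plasma-like cells and 1.73 and 4.92 CPM in T-like cells. Hspb8 stood at 175 CPM in fibroblast-like cells of whole KPC-3403 and at 0 in its epithelial or tumour-like cells, which in whole KPC-4545 held 43.0 CPM, and at most at 1.63 CPM in the B, T and NK classes. Hspb2 stood at 40.1 CPM in fibroblast-like cells of whole KPC-3403 and at 0.272 CPM in its epithelial or tumour-like cells. Hspa1a stood at 442 and 596 CPM in neutrophil-like cells of the whole libraries and at 431 and 231 CPM in macrophage or monocyte-like ones. Few of these cells carried heat-inducible genes. Thinned to 1000 UMIs, 68% and 78.8% of the neutrophil-like and 75% and 81.0% of the macrophage or monocyte-like cells held none of the 6. Among whole libraries Hsp90b1 was highest in B or plasma-like cells of whole KPC-3403, at 1748 CPM, against 308 CPM in those of whole KPC-4545. Dnajc22 stood at 32.8 and 27.4 CPM in epithelial or tumour-like cells and at 0 in every leukocyte class. Dnaja4, in contrast, was at 76.6 and 55.3 CPM in erythroid-like cells. In the mesothelial-like cells of enriched KPC-3403, Hspb1 reached 7947 CPM, with no whole library to compare.

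**Figure D4:**
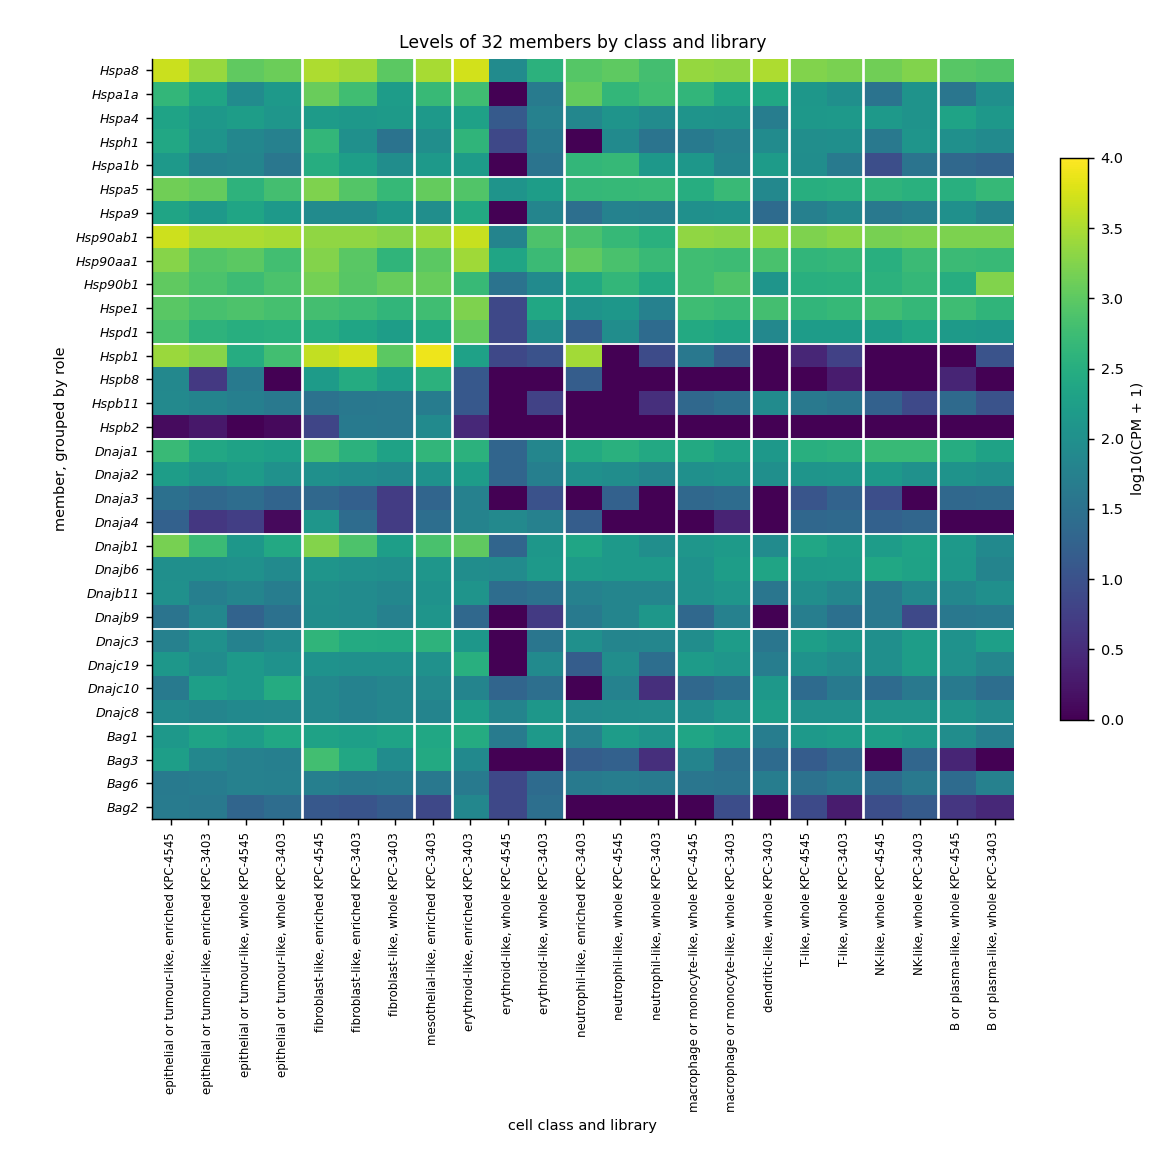
Levels of 32 members, as log10 of CPM plus 1, by cell class and library with at least 20 cells; rows are grouped by role and, within each class, enriched libraries stand left of whole ones. Hspb1 is bright in fibroblast-like, mesothelial-like and epithelial or tumour-like columns and dark in lymphocytes of whole libraries, whereas Hspa8 and Hsp90ab1 are bright in nearly every column.

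The 6 heat-inducible genes (Hspa1a, Hspa1b, Hsph1, Dnajb1, Hspb1 and Bag3) were next followed cell by cell, with each cell thinned to 1000 UMIs. Of the 6, Hspb1 held the most UMIs in every library, so their sums lean on that gene. Before low copies were left out it held 74459 and 197193 UMIs in enriched libraries, against 774 and 4301 in whole libraries. Epithelial or tumour-like cells held a median of 4 and 1 UMIs of these genes in enriched libraries, against 0 and 0 UMIs in whole libraries, and 14.2% and 31.9% of enriched cells held none, against 73.5% and 54.1% of whole cells. Fibroblast-like cells held a median of 7 and 6 UMIs in enriched libraries and 1 UMI in whole KPC-3403. Enriched cells thus lay higher across most of the distribution in both classes.
Of epithelial or tumour-like cells at this depth, 29.8% (26.7 to 33.0) and 13.4% (10.9 to 16.1) of enriched cells held a UMI of Hspa1a, against 5.88% (0.720 to 19.7) and 5.41% (2.62 to 9.72) of whole cells (Clopper-Pearson 95% intervals). Unthinned, these were 72.3% and 42.6%, against 28.6% and 19.2%. For Hspb1 the thinned shares were 63.1% and 49.5% of enriched cells, against 5.88% and 25.9% of whole cells. B or plasma-like cells held it in 0 of 176 cells of whole KPC-4545 (up to 1.70%) and in 1.64% of whole KPC-3403. They numbered 0 and 2 in enriched libraries, so these shares cover whole libraries only. Neutrophil-like cells of enriched KPC-3403 held Hspb1 in 18.2% (5.19 to 40.3), and the epithelial or tumour-like cells of that library in 49.5%. The part of free RNA in these shares was not tested.

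**Figure D5:**
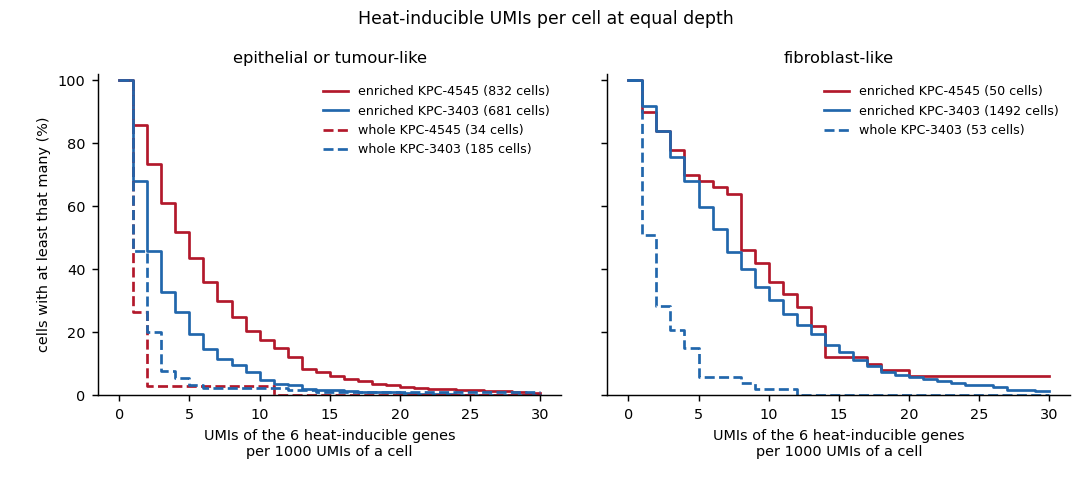
Share of cells (%) with at least the given number of UMIs of the 6 heat-inducible genes when each cell is thinned to 1000 UMIs. Solid lines are enriched and dashed lines whole libraries, red KPC-4545 and blue KPC-3403. In both classes the solid lines lie above the dashed ones at low numbers of UMIs.

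Cells that held Hspa1a also held more Dnajb1 and Hspb1 in the epithelial or tumour-like class of all 4 libraries. In cells thinned to 2000 UMIs, epithelial or tumour-like cells of enriched KPC-4545 with a UMI of Hspa1a (350 cells) held on average 4.10 UMIs of Dnajb1 and 6.83 UMIs of Hspb1, against 2.38 and 3.54 UMIs in the 472 cells without. In whole KPC-3403 the same class held 0.857 UMIs of Dnajb1 and 7.36 UMIs of Hspb1 in 14 cells with Hspa1a, against 0.444 and 0.569 UMIs in 160 cells without, and in whole KPC-4545 3 cells had Hspa1a. Fibroblast-like cells of enriched KPC-3403 gave 2.16 and 12.1 UMIs in 843 cells with Hspa1a, against 1.18 and 8.68 UMIs in 628 cells without. Hspa5 did not keep 1 direction by this split. It had 1.88 against 1.69 UMIs in those fibroblast-like cells, and 1.43 against 1.53 UMIs in epithelial or tumour-like cells of whole KPC-3403. Members outside the heat-inducible genes also differed. In the latter cells Hsp90ab1 had 13.1 against 5.29 UMIs and Hspa8 3.93 against 2.21 UMIs. Hsp90ab1, Hspa8 and Hspd1 were higher with Hspa1a in every library and class compared. In fibroblast-like cells of whole KPC-3403 Hspb1 did not differ in this way, at 1.79 UMIs in 14 cells with Hspa1a and 1.84 UMIs in 38 cells without. These are means over cells of 1 library, given as a description.

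Other genes of the pathway were read in the epithelial or tumour-like class from 4 lists, none of whose genes passed edgeR. Of all 12177 genes tested in this class, 1390 had an unadjusted p under 0.05 in edgeR. The shares of genes higher, lower and passed by DESeq2 are those given for this class above. Of 28 genes of HSF1, cochaperones and ubiquitin, 21 were higher and 3 lower in both lines, 7 had an unadjusted p under 0.05, and DESeq2 passed 3 as higher: Cryab, Sqstm1 and Ubb. Sqstm1, an autophagy receptor, had 1460 and 673 CPM in enriched cells, against 342 and 275 CPM in whole cells. Cryab, a small heat shock protein outside the symbol rule, had 121 and 23.8 CPM in enriched cells, against 1.09 and 3.54 CPM in whole cells, and the value of whole KPC-4545 rests on 1 UMI. Hsf1 itself had 34.3 and 24.8 CPM in enriched cells, against 26.1 and 21.2 CPM in whole cells.
Of 13 genes found of 14 in the list of the endoplasmic reticulum stress response, 8 were higher and 1 lower in both lines, 5 had an unadjusted p under 0.05 and DESeq2 passed 0. Herpud1, of protein degradation at that organelle, had 146 and 134 CPM in enriched cells, against 65.3 and 71.9 CPM in whole cells. Of 6 mitochondrial stress genes 2 were higher and 1 lower, 1 at an unadjusted p under 0.05, and DESeq2 passed 0. These counts are too small to set apart from the shares of all genes. Of 20 immediate early genes, which answer within minutes to many stimuli and to dissociation, 19 were higher and 1 lower in both lines, 16 had an unadjusted p under 0.05, and DESeq2 passed 14 as higher. Jun had 2550 and 1377 CPM in enriched cells, against 341 and 454 CPM in whole cells. The list medians on the log2 scale were 0.44, 0.51, -0.09 and 1.35 in this order, against 0.03 over all genes.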

How the data were processed

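The deposited files were UMI count matrices of 4 libraries made by the authors with Cell Ranger 6.1.1 on mm10, per the submitters' processing notes; the matrices name Cell Ranger 4, per the file headers. All barcodes were deposited as raw counts, not filtered for cells. Here barcodes with at least 500 UMIs, at least 250 genes and at most 20% mitochondrial UMIs were kept. Shared barcodes with at most 1/10 of the UMIs of their copy were dropped (155 in all). Cells were clustered without the 73 members (scanpy 1.11.5, 2000 variable genes, 30 components, Leiden resolution 1, 26 clusters). Clusters were named from marker lists when at least 3 markers were detected and the best score led the next by 0.5. A margin of 1 was tried first, and changed after the clusters, though not the members, were seen. Closer scores were settled by markers among the leading genes. The mesothelial-like cluster 10 was named so, with scores of 3.43 for fibroblast and 3.41 for mesothelial. Clusters of shallow cells without a leading marker, or led by genes of another class, stayed unnamed. Doublets were kept; removing those scored highest by Scrublet was an alternative. A rebuilt class may differ from the authors' own.

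Counts were summed per library and class and tested with edgeR 4.0.16 (TMM, filterByExpr, robust quasi-likelihood fit, Benjamini-Hochberg over all genes, 0.05), with the line as a term; DESeq2 1.42.0 was the alternative. An exact permutation test of 2 against 2 libraries could not give a p below 0.333. The pairing comes from the labels, which give each line both preparations: deviations of same-line libraries from their preparation means correlated at 0.277 over all cells, 0.343 outside leukocytes and erythroid cells and 0.561 in epithelial or tumour-like cells. Pairs of single libraries have exact 95% intervals that cover counting error only, and a 0 allows up to 3 counts. The fits were tested on simulated data.

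Members, roles and gene lists were chosen with earlier results of these data known. Members named in full were the up to 4 of highest mean CPM in each role, the 6 heat-inducible genes, and any that passed. Free RNA was read from barcodes with at most 100 UMIs. A member that the counts include is not reported here.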

Additional observations from a re-analysis of the deposited data

Results flagged for a closer look

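Within the epithelial or tumour-like class, Dnajc9 had a ratio of enriched to whole of 1.69 in KPC-4545 and 0.696 in KPC-3403. The intervals of counting error excluded 1 in opposite directions, and the difference between the lines was not tested.

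Within KPC-3403, 3 members lay in opposite directions between epithelial clusters, with intervals of counting error that excluded 1; these differences were not tested, since each ratio is 1 library over 1. Hspa1a had a ratio of enriched to whole of 3.87 in cluster 8, 0.657 in cluster 2 and 0.573 in cluster 17. Its near copy Hspa1b had 2.28, 1.27 and 1.16 in the same order, with intervals that held 1 in clusters 2 and 17. These intervals leave out clumping of UMIs over cells. Thinned to 1000 UMIs, whole epithelial or tumour-like cells of KPC-3403 held up to 55 UMIs of the 6 heat-inducible genes, and 54.1% held none. Hsp90b1 had 1.21 in cluster 2, 1.21 in cluster 8 and 0.798 in cluster 17. Dnajc2, a ribosome-bound J-domain protein, had 2.34 in cluster 2, where the whole library held 7 UMIs, and 0.755 in cluster 8.

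Heat-inducible genes were also seen outside the cells used. In barcodes with at most 100 UMIs, the 6 genes summed to 3447 and 6558 CPM in enriched libraries, against 1360 and 914 CPM in whole libraries. In barcodes left out for over 20% mitochondrial UMIs they summed to 2949 and 2848 CPM in enriched libraries, against 188 and 773 CPM in whole libraries, the 188 resting on 4 UMIs. The part of this RNA in the values of the cells was not tested.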

How the results depend on the processing

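With 2 libraries a preparation and 1 residual degree of freedom, the edgeR count of members changed with some settings. In each of the 3 sums 0 members passed with the replicate block (the line term) and 0 without it, and 0 passed with RLE size factors, stricter cell filters, doublets removed, shared barcodes kept, Leiden resolution 2, or the unnamed clusters or cluster 19 left out, where these apply. DESeq2 passed 10 members as higher over all cells, 9 as higher and 1 as lower outside leukocyte and erythroid classes, and 6 as higher in epithelial or tumour-like cells, with the median gene there at -0.17 on the log2 scale, against 0.03 in edgeR. With no filter on low counts edgeR passed 3, 8 and 15 as higher (0.377%, 0.537% and 2.53% of genes) and 2 as lower in the last (2.41%); without clusters 17 and 23, left out after seeing the data, it passed 4 (0.724%). Leaving out 1 library each gave 0 to 17 members higher and 0 to 1 lower over all cells, 0 to 13 and 0 to 3 outside those classes, and 0 to 7 and 0 to 1 in epithelial or tumour-like cells; the cause was not tested.
Of the values of single members in epithelial or tumour-like cells under settings that kept all 4 libraries, 351 kept their direction and side of the threshold, 27 kept their direction and now passed, and 7 changed sign. With 1 library left out these were 118, 8 and 14. The 7 that changed sign were small differences: Dnajc8 stood at 0.0281 with no filter, 0.00362 at Leiden resolution 2 and 0.00265 without cluster 19, Dnajc19 at 0.0454 at Leiden resolution 2, and Hspa9 at -0.11, Dnaja2 at -0.00184 and Dnajb6 at -0.0723 without clusters 17 and 23. Leaving out 1 library each, log2 differences ran from -0.59 to 0.20 for Bag1, -0.0806 to 0.46 for Dnaja2, -0.0403 to 0.81 for Dnajb11, -0.43 to 0.0797 for Dnajc19, -0.31 to 0.67 for Dnajc3, -0.17 to 0.0878 for Dnajc8, -0.0463 to 0.52 for Hspa4 and -0.26 to 0.36 for Hspa9. Those of Hspb8, from -2.25 to 12.14, rest on a library with 0 UMIs and are no measure of size.
Among pairs of single libraries in KPC-3403, plain totals gave 4 members higher and 3 lower in cluster 17 (7.93% and 9.12% of genes), 22 higher and 2 lower in cluster 20 (20.9% and 11.4%), 13 higher and 2 lower in cluster 7 (27.3% and 4.50%), and 42 higher and 1 lower in erythroid-like cells (67.2% and 6.04%). A limit of 10% mitochondrial UMIs gave 7 higher in cluster 2 (4.50% of genes) and 3 lower in cluster 20 (19.7%). Leiden resolution 2 gave 6 higher and 0 lower in epithelial or tumour-like cells (205 and 366 of 7869 genes). In fibroblast-like cells it gave 13 higher (446 of 7760 genes). In epithelial or tumour-like cells of KPC-4545 it gave 16 of 60 members higher and 4 lower (830 and 1034 of 7920 genes). Thinned to 2000 UMIs, 42.6% and 20.0% of enriched epithelial or tumour-like cells and 57.3% of fibroblast-like cells of enriched KPC-3403 held Hspa1a. With 1000 UMIs and 500 genes required, the 6 heat-inducible genes summed to 438 CPM in erythroid-like and 646 CPM in neutrophil-like cells of whole KPC-3403. Whole epithelial or tumour-like cells of KPC-4545 numbered 35, which limits every value of that pair.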

Other observations

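The barcodes left out for over 20% mitochondrial UMIs, 1224 and 213 in enriched libraries against 11 and 27 in whole libraries, held some chaperones at levels unlike those of the cells used. In enriched KPC-4545, Hsph1 stood at 1206 CPM in these barcodes and 425 CPM in free RNA, and Hspa4l, a further HSP110, at 576 CPM and 216 CPM. Hspa8 in the same barcodes stood at 1186 CPM, and at 2869 CPM in free RNA. In enriched KPC-3403 Hsph1 stood at 505 CPM and 115 CPM, and Hspa4l at 25.7 CPM and 30.9 CPM. All of these are 1 library each, with no test.

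The members together took 2.35% and 1.79% of the UMIs of enriched cells, against 0.858% and 0.922% of the UMIs of whole cells. Their lowest share was in erythroid-like cells of whole KPC-4545, at 0.125%. Mesothelial-like cells of enriched KPC-3403 (181 cells) had the highest summed level of the 6 heat-inducible genes among the classes with at least 20 cells, at 9667 CPM. Most of that sum was Hspb1. At 1000 UMIs, 2.21% of these cells held none of the 6 genes.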
